A study of Homo sapiens with 6 samples.

Results

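Matrix metalloproteinases and their tissue inhibitors were followed in ARPE-19 cells that carried a control or a PDZK1 lentivirus. The 10 members, chosen by gene symbol, were MMP1, MMP2, MMP3, MMP14, MMP15, MMP24 and TIMP1 to TIMP4, out of 20461 genes with an Ensembl identifier in the tables. All 10 passed the filter on low counts and were tested. ARPE-19 is a human retinal pigment epithelial line that arose without engineered immortalisation. The control group carried a control lentivirus and the PDZK1 group an overexpression lentivirus for PDZK1, which encodes a scaffold with PDZ domains under the plasma membrane. Both groups were infected at a multiplicity of 10, put under puromycin selection at 4 µg/ml and held in 37.5 mM glucose for 48 h, so every value below was measured in high glucose. Each group had 3 libraries. The labels do not say whether these came from separate cultures, and the p-values then measure only the spread between these samples, which may be technical. The promoter that drives PDZK1 and whether the selected cells were a pool or a clone are not given in the sources used here.

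Matrix metalloproteinases are zinc-dependent proteases that are made as inactive precursors and cleave collagens, laminins and other proteins around cells. TIMPs block them by wedging the amino-terminal end of the inhibitor into the active site. In the retinal pigment epithelium these enzymes and inhibitors turn over Bruch's membrane, the sheet of matrix beneath the cells, where TIMP3 is held.

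The catalytic stretch of each protease gene and the start of each mature inhibitor are shown because the inhibitor binds the protease there. Sequences were read from GENCODE release 29 transcripts on GRCh38, on the coding strand, 5′ to 3′. In the MMPs the capitals mark the codons of the 3 zinc-binding histidines and of the catalytic glutamate. In the TIMPs they mark the codons of the first 2 cysteines, in the amino-terminal end that enters the active site.
MMP1: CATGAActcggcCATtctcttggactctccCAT
MMP3: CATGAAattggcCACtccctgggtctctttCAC
MMP2: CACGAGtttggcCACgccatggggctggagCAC
MMP14: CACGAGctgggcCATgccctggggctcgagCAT
MMP15: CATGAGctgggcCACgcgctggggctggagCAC
MMP24: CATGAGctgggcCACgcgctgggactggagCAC
TIMP1: TGCaccTGTgtcccaccccacccacag
TIMP2: TGCagcTGCtccccggtgcacccgcaa
TIMP3: TGCacaTGCtcgcccagccacccccag
TIMP4: TGCagcTGCgccccggcgcaccctcag

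Every one of these stretches lay within a single exon. The MMP1 stretch was in exon 5 of 10 at chr11:102795549-102795581 and the MMP3 stretch in exon 5 of 10 at chr11:102840535-102840567, both on the minus strand. Those of MMP14 (chr14:22843283-22843315), MMP15 (chr16:58040563-58040595) and MMP24 (chr20:35263817-35263849) were also in exon 5, on the plus strand, and that of MMP2 was in exon 8 of 13 at chr16:55491827-55491859, plus strand. The TIMP1 stretch was in exon 2 of 6 at chrX:47583485-47583511 and the TIMP3 stretch in exon 1 of 5 at chr22:32802071-32802097, both on the plus strand. The TIMP4 stretch was in exon 1 of 5 at chr3:12158727-12158753 on the minus strand. The TIMP2 stretch was in exon 1 of 5 at chr17:78924984-78925010 on the minus strand. MMP15 and MMP24, both membrane-type enzymes, were identical at 32 of the 33 bases, the closest pair. MMP1 and MMP2 were the most distant pair, with 18 of 33, and MMP1 and MMP3 shared 24. Among the TIMPs, TIMP2 and TIMP4 shared 23 of 27 bases and TIMP1 and TIMP2 shared 17. No 50-base word of a member's longest coding transcript occurred in another member.

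Libraries held 27970618 to 32804567 counts and 14927 to 15095 genes with at least 1 count. PDZK1 itself had 19, 18 and 23 counts in the control libraries against 3020, 2541 and 2828 with overexpression, the direction the labels give. The second principal component, with 21.1% of the variance, set control replicate 3 apart from the other control libraries. Of 14 retinal pigment epithelium markers, RPE65, TYR, RGR and TTR, which mark mature pigment epithelium, had at most 3 counts in every library, while the summed level of the list was 1913 to 2153 CPM in control and 1970 to 2438 CPM in PDZK1 libraries. CPM are counts scaled to library size after TMM normalisation, and values are listed throughout in the order of replicates 1 to 3. BEST1 had 11459 counts in PDZK1 replicate 1 and 124 to 181 elsewhere. The 10 fibroblast and mesenchymal markers summed to 4410 to 5303 CPM in control and 4227 to 4679 CPM in PDZK1 libraries, with THY1, LUM and DCN at or under 3 counts. The 7 endothelial markers summed to 5.41 to 5.51 against 4.07 to 4.55 CPM, with CDH5 and ERG at or under 3 counts. The 8 leukocyte markers summed to 132 to 163 against 126 to 129 CPM, nearly all of it CD68, with PTPRC, AIF1 and CD3E among those at or under 3 counts. Of the markers on the 4 lists, 10, 7, 2 and 2 were tested, in the order above, and none passed. In edgeR 1, 3, 1 and 1 of them had an unadjusted p under 0.05, against 17.5% of all genes tested. Fitted log2 changes of single genes ran as low as -2.81 in the fibroblast list, whose median was 0.040. In the pigment epithelium list they ran as high as 4.55, with a median of -0.0031. The part of these shifts in the results below was not tested.

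With PDZK1 overexpression MMP1, the interstitial collagenase, rose 3.94-fold (95% interval 2.76 to 5.63) and TIMP2, an inhibitor abundant in these cells, fell to 0.834 of its control level (0.787 to 0.885). These were the 2 members of 10 that passed the threshold, an adjusted p under 0.05 in edgeR's quasi-likelihood test with Benjamini-Hochberg adjustment over 13645 genes. Over all genes 3.83% passed, 1.41% higher and 2.41% lower. The members were chosen with earlier results of these data known, so their share is a description and not a test against all genes. The other 8 members did not pass. Whether called or not, 3 of 6 MMPs and 2 of 4 TIMPs had a fitted change above 0. The median log2 change of the 10 was -0.040, against -0.00025 over all genes tested. The groups did not overlap in 5 members (MMP1, MMP2, MMP15, TIMP2 and TIMP3), and 23.9% of all genes tested had groups that did not overlap. In a bulk sample, fewer cells of a type and less RNA per cell cannot be told apart.

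**Figure D1:**
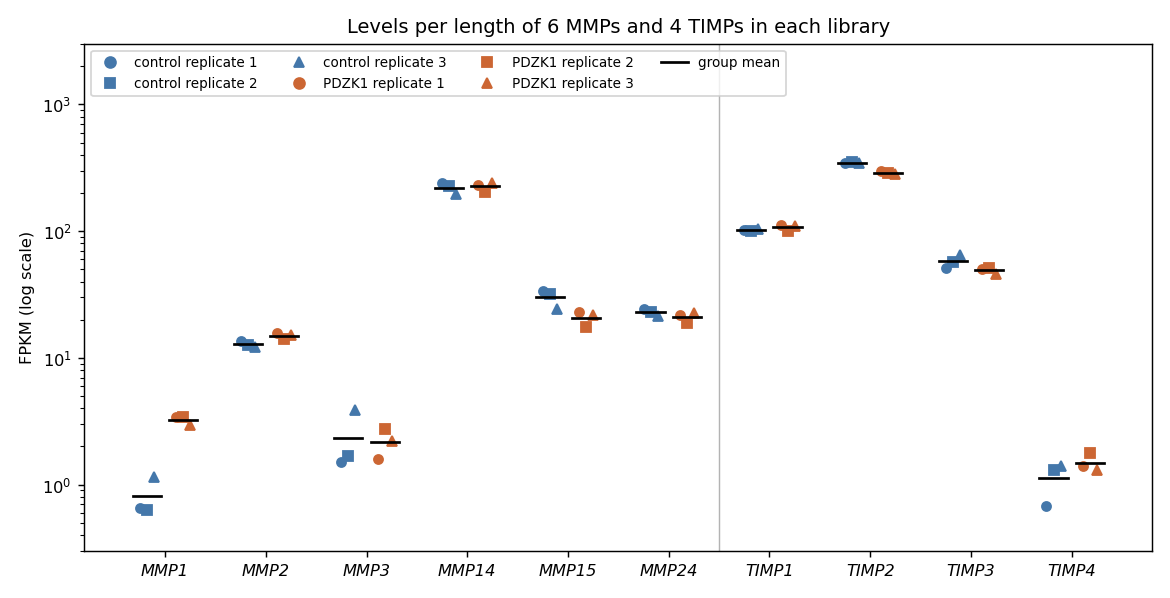
FPKM of each of the 6 MMPs and 4 TIMPs on a log axis, with a point for each control and PDZK1 library and a line at each group mean. The PDZK1 libraries sit above the control libraries in MMP1, at 2.97 to 3.40 FPKM against 0.634 to 1.15 FPKM, and below them in TIMP2.

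MMP1 (ENSG00000196611) lies at 11:102789920-102798160 on the minus strand of GRCh38 and encodes the enzyme that opens the triple helix of fibrillar collagens. Its level was 1.42, 1.39 and 2.50 CPM in the control libraries and 7.24, 7.29 and 6.34 CPM in the PDZK1 libraries. Every PDZK1 library was above every control library, and control replicate 3 was the highest control. The means were 1.77 ± 0.631 and 6.96 ± 0.537 CPM (SD, n = 3). The log2 change from control to PDZK1 was 1.98 (SE 0.229, 95% interval 1.47 to 2.49, adjusted p 0.0016 in edgeR). The deposited estimated counts were 46, 43 and 69 against 232, 239 and 201. MMP1, like MMP3, overlaps the opposite-strand gene WTAPP1, which had no entry under its Ensembl identifier among the deposited counts. All 10 exons of MMP1 lie within the span of WTAPP1, and 2.92% of the 50-base words of MMP1 occur in WTAPP1 transcripts. The strandedness of the counting is not given in the sources used here, so reads of a gene and its antisense partner cannot be told apart.

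MMP3 (ENSG00000149968), stromelysin, which cleaves proteoglycans and laminin and can activate other MMP precursors, lies at 11:102835801-102843803 on the same strand, with 37640 bases between it and MMP1. Its level was 3.03, 3.33 and 7.72 CPM in the control libraries and 3.15, 5.46 and 4.38 CPM in the PDZK1 libraries. The groups overlapped, and control replicate 3 was the highest of all 6 libraries. The log2 change was -0.11 (SE 0.410, 95% interval -1.10 to 0.88, adjusted p 0.929), and without control replicate 3 it was 0.44. The sequence around both genes on chromosome 11 holds 9 MMP genes, of which 3 (MMP7, MMP1 and MMP3) had counts and 6 were listed at 0 in every library. An estimated count of 0 can also be an entry that was not estimated.

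MMP2 (ENSG00000087245), gelatinase A, which cleaves denatured collagen and type IV collagen of basement membranes, lies at 16:55389700-55506691 on the plus strand. Its level was 51.9, 48.7 and 47.2 CPM in the control libraries and 59.4, 53.7 and 58.0 CPM in the PDZK1 libraries. The groups did not overlap, and MMP2 was nonetheless not called. The log2 change was 0.21 (SE 0.059, 95% interval 0.08 to 0.34), with an unadjusted p of 0.00545 and an adjusted p of 0.0886.

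The 3 membrane-type enzymes sit on the cell surface. MMP14 (14:22836557-22849027, plus strand) activates pro-MMP2 together with TIMP2 and had the highest mean FPKM of the 6 MMPs. MMP15 (16:58025566-58046901, plus strand) and MMP24 (20:35226654-35277000, plus strand) belong to the same class. MMP14 was at 936, 897 and 779 CPM in control and 909, 806 and 952 CPM in PDZK1 libraries. The groups overlapped, with a log2 change of 0.03 (SE 0.084, 95% interval -0.17 to 0.23, adjusted p 0.902). MMP15 was at 149, 140 and 108 CPM in control and 102, 76.5 and 94.6 CPM in PDZK1 libraries. Every PDZK1 library was below every control library, and the log2 change was -0.54 (SE 0.170, 95% interval -0.99 to -0.10, unadjusted p 0.0253, adjusted p 0.201). DESeq2 gave MMP15 an adjusted p of 0.000587. MMP24 was at 116, 110.3 and 102 CPM in control and 103, 89.9 and 106 CPM in PDZK1 libraries, with overlapping groups and a log2 change of -0.14 (SE 0.070, adjusted p 0.371). MMP24 overlaps MMP24OS on the opposite strand, which had 1971 to 2247 counts per library, and 18.7% of its 50-base words occur in other genes.

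**Figure D2:**
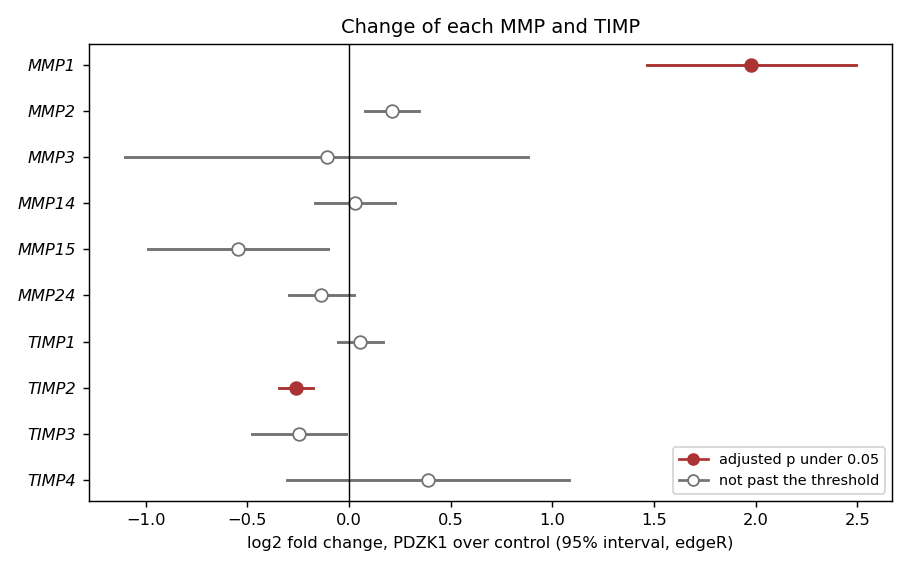
Log2 change of each member, PDZK1 over control, with bars for the 95% interval of the edgeR model. MMP1 is at 1.98 and TIMP2 at -0.26, and the intervals of MMP3, MMP14, MMP24, TIMP1 and TIMP4 reach across 0.

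TIMP2 (ENSG00000035862), which inhibits MMP2 and also links its precursor to MMP14, lies at 17:78852977-78925387 on the minus strand. Its level was 1358, 1388 and 1369 CPM in the control libraries and 1180.3, 1142 and 1112 CPM in the PDZK1 libraries. The highest PDZK1 library was below the lowest control library. The means were 1372 ± 15.2 and 1145 ± 34.1 CPM (SD, n = 3), and the log2 change was -0.26 (SE 0.038, 95% interval -0.35 to -0.18, adjusted p 0.00534 in edgeR). Without control replicate 2 the adjusted p was 0.0509. The gene shares 13.02% of its 50-base words with AC022966.1 and CEP295NL, and CEP295NL, on the same strand, had 9 to 25 counts per library.

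TIMP3 (ENSG00000100234, 22:32801701-32863043, plus strand) binds to extracellular matrix and is altered in Sorsby fundus dystrophy, a disease of Bruch's membrane. Its level was 257.7, 286 and 328 CPM in control and 251, 257.6 and 226 CPM in PDZK1 libraries. Control replicate 1 lay just above PDZK1 replicate 2, so the groups met without overlapping, and by FPKM they overlapped. The log2 change was -0.25 (SE 0.096, 95% interval -0.48 to -0.01, unadjusted p 0.0407, adjusted p 0.258). TIMP1 (ENSG00000102265, X:47582313-47586789, plus strand), which inhibits secreted MMPs and acts weakly on membrane-type enzymes, was at 86.9, 85.5 and 89.1 CPM in control and 95.1, 84.6 and 91.9 CPM in PDZK1 libraries. The groups overlapped, and the log2 change was 0.06 (SE 0.049, 95% interval -0.06 to 0.17, adjusted p 0.628). TIMP4 (ENSG00000157150, 3:12153051-12159351, minus strand), rich in heart, was at 0.898, 1.72 and 1.85 CPM in control and 1.81, 2.32 and 1.70 CPM in PDZK1 libraries, and its log2 change was 0.39 (SE 0.310, adjusted p 0.579). TIMP1, TIMP3 and TIMP4 each lie inside a synapsin gene on the opposite strand (SYN1, SYN3 and SYN2), and these had at most 18 counts in any library. That is small beside TIMP1 and TIMP3 but less so beside TIMP4, which had 29 to 76 counts. SYN2 had 0, 2 and 6 counts in control and 4, 17 and 4 in PDZK1 libraries. Of the 50-base words of TIMP4, 7.56% occur in SYN2.

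Of the 8 members not called, 5 (MMP2, MMP14, MMP24, TIMP1 and TIMP3) had a 95% interval inside a 1.5-fold change in either direction. The intervals of MMP3, MMP15 and TIMP4 reached beyond 1.5-fold, so the data allow a change of that size in these 3.

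By FPKM, which scale fragments by transcript length and library size, levels can be set beside each other between genes. In control libraries the order of mean FPKM was TIMP2, MMP14, TIMP1, TIMP3, MMP15, MMP24, MMP2, MMP3, TIMP4 and MMP1. Neighbours overlapped in their ranges in 2 places, MMP15 with MMP24 and TIMP4 with MMP1. In PDZK1 libraries MMP1 stood above MMP3 and TIMP4, MMP24 stood beside MMP15 with overlapping ranges, and MMP3 overlapped TIMP4. TIMP2 averaged 345 ± 3.27 FPKM in control and 290.1 ± 8.55 FPKM in PDZK1 libraries, and MMP14 averaged 220.4 and 226 FPKM. MMP1 averaged 0.811 ± 0.292 and 3.26 ± 0.245 FPKM, so it went from the lowest mean of the 10 to rank 8. Mean FPKM in control and PDZK1 libraries was 102 and 107 for TIMP1 and 58.0 and 49.2 for TIMP3. Among the proteases it was 30.1 and 20.8 for MMP15, 22.9 and 21.0 for MMP24, 12.9 and 15.0 for MMP2, and 2.35 and 2.19 for MMP3. TIMP4, at 1.13 and 1.49, stayed far below the other inhibitors in both groups.

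The balance of protease to inhibitor was set out per library as log2 of FPKM plus 0.1 over FPKM plus 0.1. These are ratios of RNA, and the protein, activation and activity of these enzymes are not part of these data. MMP1 over TIMP1 was -7.09, -7.09 and -6.39 in control and -5.01, -4.83 and -5.15 in PDZK1 libraries. Every PDZK1 ratio was higher, by 1.86 on the log2 scale between means. MMP2 over TIMP2 was -4.65, -4.77 and -4.80 in control and -4.25, -4.35 and -4.20 in PDZK1 libraries, higher by 0.47. MMP14 over TIMP2 was -0.53, -0.61 and -0.82 in control and -0.36, -0.50 and -0.24 in PDZK1 libraries, higher by 0.29. The groups did not overlap in these 3 ratios. Each had an exact two-sided permutation p of 0.1, the smallest that 3 libraries against 3 allow, and 0.133 after adjustment over the 4 pairs. Each of the 3 holds MMP1 or TIMP2, the called members, so they are not separate from those calls. MMP14 alone had a log2 change of 0.03 in edgeR, against -0.26 for TIMP2. MMP3 over TIMP1 was -5.98, -5.82 and -4.72 in control and -6.06, -5.13 and -5.56 in PDZK1 libraries, with overlapping groups (difference -0.076, exact p 0.9).

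**Figure D3:**
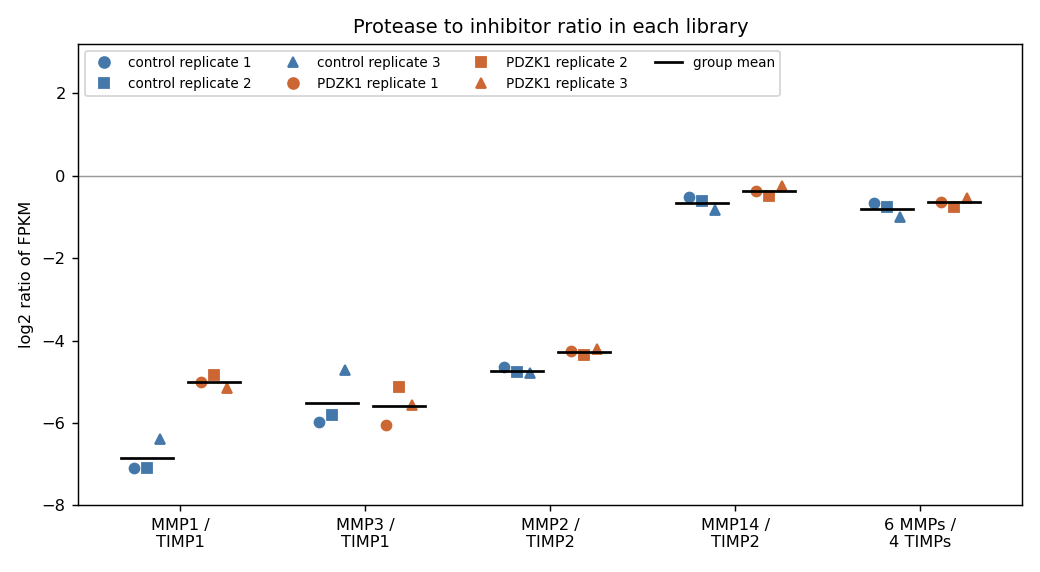
Log2 protease to inhibitor ratio of FPKM for 4 pairs and for the summed 6 MMPs over the summed 4 TIMPs, with a point for each control and PDZK1 library and a line at each group mean. The MMP1 over TIMP1, MMP2 over TIMP2 and MMP14 over TIMP2 ratios sit higher in the PDZK1 libraries, and the groups overlap in MMP3 over TIMP1 and in the ratio of the sums.

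The sums below cover only the 10 members and leave out the 17 other MMPs. With no test, the 6 MMPs summed to 312, 298 and 258 FPKM in control and 299, 261 and 304 FPKM in PDZK1 libraries. The groups overlapped. The 4 TIMPs summed to 497, 507 and 515 against 464, 441 and 439 FPKM, with no overlap. The ratio of the sums was 0.628, 0.588 and 0.501 in control and 0.644, 0.591 and 0.694 in PDZK1 libraries, with overlapping groups and means of 0.572 ± 0.0649 and 0.643 ± 0.0517. Without MMP14 and TIMP2 the means of that ratio lay in the other order, at 0.430 ± 0.0564 in control and 0.394 ± 0.0223 in PDZK1 libraries, and the groups overlapped again. MMP14 supplied 76.1% ± 0.502 of the MMP sum in control and 78.4% ± 0.371 in PDZK1 libraries, and TIMP2 supplied 68.2% ± 1.19 and 64.8% ± 0.487 of the TIMP sum (SD, n = 3). MMP1 moved from 0.289% to 1.14% of the MMP sum.

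Promoters of 6 of the 10 members (MMP14, MMP15, MMP24, TIMP1, TIMP3 and TIMP4) were in the RefSeq table for GRCh38.p14, as the 250 bases before and 50 after the start. The letters TGAGTCA, the AP-1 site, were in 0 of the 6 on either strand and in 4.95% of 35116 promoters. The letters TATAAA were in 0 of the 6 and in 11.5% of all promoters. The promoters of MMP1, MMP2, MMP3 and TIMP2 were missing there, so both called members went unsearched. The 6 searched are too few to set a share of 0 apart from those of all promoters.

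The other MMPs numbered 17, of which 7 were tested. This list and those below were chosen with earlier results of these data known. Over all genes tested 3.83% passed. MMP16, a membrane-type enzyme, rose from 25.8 ± 1.36 to 34.7 ± 2.32 CPM (log2 change 0.43, adjusted p 0.00946) and no other passed. The median log2 change of the 7 was -0.14. Of the 17, 8 were listed at 0 counts in every library (MMP8, MMP9, MMP10, MMP12, MMP13, MMP20, MMP26 and MMP27). In the ADAM and ADAMTS list 18 of 25 were tested, with 1 higher, 1 lower and a median log2 change of -0.0037. ADAM19 rose from 20.0 to 27.4 CPM (log2 change 0.45, adjusted p 0.0187) and ADAM12 fell from 122 to 93.0 CPM (log2 change -0.39, adjusted p 0.000895).

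Among 15 tested genes for the activation, inhibition and clearance of these proteases, 3 were higher and 1 lower, with a median log2 change of 0.049. The share of all genes past the threshold was 3.83%, and no test was made over the list. PLAU, which encodes urokinase and starts the plasmin cascade that activates pro-MMPs, was at 13.03, 13.7 and 14.4 CPM in control and 24.3, 28.04 and 25.7 CPM in PDZK1 libraries. The groups did not overlap, and the log2 change was 0.93 (adjusted p 0.000326). THBS1, thrombospondin 1, rose from 289 to 391 CPM (log2 change 0.44, adjusted p 0.00138), and LRP1, a clearance receptor, from 1305 to 1463 CPM (0.16, adjusted p 0.0496). CD44, a docking receptor for MMPs, fell from 624 to 531 CPM (log2 change -0.23, adjusted p 0.0292). PLG, plasminogen, the substrate of urokinase, had 0 to 5 counts.

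Of 16 AP-1, ETS and RUNX factors, all tested, with a median log2 change of 0.044, 1 was higher and 1 lower. ETV1 rose from 44.1 to 59.6 CPM (log2 change 0.43, adjusted p 0.00196) and JUN fell from 242 to 218 CPM (log2 change -0.15, adjusted p 0.0404). Of 21 matrix substrates 15 were tested and 2 passed, both lower, with a median log2 change of -0.026. TNC, tenascin C, fell from 4.67 to 2.25 CPM (log2 change -1.06, adjusted p 0.01002) and LAMA4, a laminin chain, from 257 to 215 CPM (log2 change -0.26, adjusted p 0.00311). Of these 11 called genes, ADAM12, ETV1, LAMA4, PLAU and THBS1 kept the call in all 15 alternative analyses. JUN and LRP1 lost it in 10, ADAM19 and CD44 in 7 and MMP16 in 6 of the 15, and TNC in 3 of the 13 that tested it. Leaving out control replicate 2 or PDZK1 replicate 3 ended the call of MMP16, and leaving out control replicate 1 or PDZK1 replicate 3 that of TNC. The call of CD44 ended without control replicate 2, PDZK1 replicate 1 or PDZK1 replicate 3, and that of ADAM19 when any of the 3 PDZK1 replicates was left out. JUN and LRP1 kept theirs only without control replicate 3 among the libraries left out in turn.

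**Figure D4:**
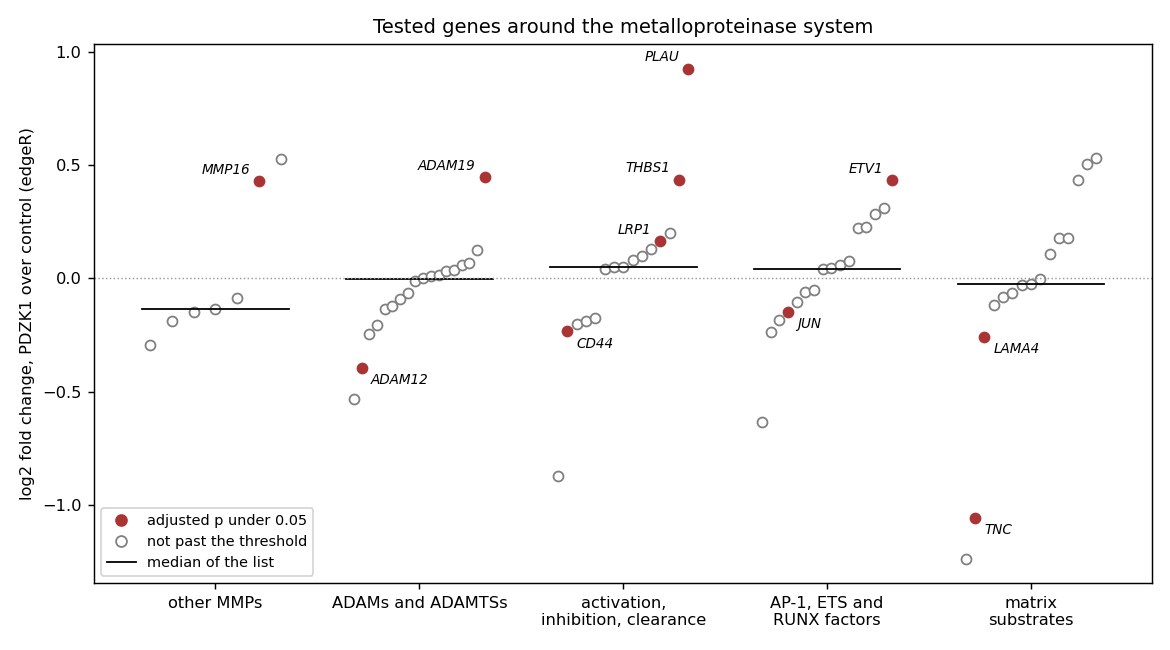
Log2 change, PDZK1 over control, of the tested genes of the 5 related lists, each point a gene and each line the median of a list. The called genes are filled, with PLAU at 0.93 and TNC at -1.06 the farthest of them from 0.

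For each called member, the 3 genes with the most similar pattern over the 6 libraries were found by Pearson correlation of log2 CPM, as a description. For MMP1 these were SOCS4, PLEKHA7 and AKAP8 (r = 0.997 for each). PLEKHA7 was called (log2 change 0.87, adjusted p 0.0276 in edgeR). SOCS4 (0.114, adjusted p 0.196) and AKAP8 (0.115, adjusted p 0.278) were not, and changed far less than MMP1. For TIMP2 these were MAGEH1 (0.999), KBTBD12 (0.998) and UPF3B (0.996). MAGEH1 (log2 change -1.58, adjusted p 0.00379) and KBTBD12 (-0.84, adjusted p 0.00872) were called, and UPF3B (-0.20, adjusted p 0.166) was not. The 6 points share libraries and depth. These genes were picked as the highest r among 13645, so a high r follows from the choice and shared regulation was not tested.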

How the data were processed

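RNA sequencing libraries were made from total RNA of ARPE-19 cells with a VAHTS Universal V6 kit, and the labels place 3 in each group and name no batch. The authors deposited estimated counts as whole numbers per gene, unscaled. Of 5939 genes with ample counts, 4331 had a ratio of count to FPKM that varied by more than 1% between libraries, so they were read as estimates. The authors also deposited FPKM, fragments scaled by transcript length and library size. The submitters' processing notes name fastp 0.20.1, HISAT2 2.2.1 and GRCh38. The counting program and strandedness are not given in the sources used here. Each table also had 3 per-sample columns that match none of the 6 samples and were not used.

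Of 21314 entries, 853 assembled loci were left out, leaving 20461. Genes were kept by filterByExpr in edgeR 4.0.16 (R 4.3.3), libraries were scaled by TMM, and PDZK1 was compared with control by the robust quasi-likelihood test without covariates, two-sided, with Benjamini-Hochberg adjustment over 13645 genes and a threshold of 0.05. Expected counts needed no rounding. The biological coefficient of variation was 0.0995. Libraries held 27970618 to 32804567 counts, and the floor of 3 counts, the upper limit for a gene at 0, equals 0.0915 to 0.109 CPM. Floors cover counting error only. Ratios used FPKM plus 0.1 and an exact permutation test (scipy 1.17.1).

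Alternatives were DESeq2 1.42.0, limma 3.58.1 with a trend on log2 FPKM (pseudocounts 1 and 0.1, mean FPKM of at least 0.5, or no filter), other scalings and count filters, the replicate number as a block and each library left out. The text names all members, PDZK1, genes of the related lists past the threshold (at most 6 a list) and the 3 genes most like each called member. Marker genes and genes at 0 counts are named beside the result they touch. The members and the lists were chosen with earlier results of these data known. Promoters are RefSeq's, and positions are GENCODE 29, 1-based.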

Additional observations from a re-analysis of the deposited data

How the results depend on the processing

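Of 150 member values under 15 alternatives each, 143 kept their direction and side of the threshold. MMP1 passed in all 15, with a log2 change of 1.24 (FPKM, pseudocount 1) to 2.30 (without control replicate 3) and an adjusted p of 7.85e-12 to 0.0213. TIMP2 ran from -0.28 to -0.24, with an adjusted p of 4.23e-11 to 0.0604. It lost the call without control replicate 2 (0.0509) and with the replicate number as a block (0.0604). With DESeq2 MMP15 also passed (adjusted p 0.000587), which made 3 members, 2 of them lower. Over all genes 814 of 16341 passed with DESeq2, against 522 of 13645 in the main test. The cause of these shifts was not tested.

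With each library left out in turn, members past the threshold numbered 1 to 2, lower members 0 to 1, all genes 181 (without PDZK1 replicate 1) to 875 (without control replicate 3) and listed genes 5 to 18. The log2 change ran from -0.35 to 0.44 for MMP3, turning sign without control replicate 3 or PDZK1 replicate 1, and from -0.045 to 0.098 for MMP14, turning without control replicate 3 or PDZK1 replicate 3. The log2 ratio of MMP3 over TIMP1 ran from -0.31 to 0.32, also turning without control replicate 3 or PDZK1 replicate 1. The other 3 ratios kept their sign. MMP1 over TIMP1 was 1.18 with a pseudocount of 1.

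All genes past the threshold numbered 522 in the main test, 814 with DESeq2, 184 and 185 by log2 FPKM (pseudocounts 1 and 0.1) and 185 by log2 FPKM without a filter. The 11 listed genes became 17, 5, 5 and 7 in the same order. With assembled loci kept, an alternative chosen after seeing the data, the counts were 467 genes, 2 members and 10 listed genes.

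The labels do not say whether the replicate numbers pair the libraries. Same-numbered libraries had residual correlations over genes of -0.046, -0.056 and -0.143. These cannot settle it, since the residuals were centred within groups of only 3 libraries. With the replicate block 163 of 13645 genes passed, with 1 member, 0 lower members and 5 listed genes.

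Depth limits MMP1, MMP3 and TIMP4 most, with at most 239, 213 and 76 counts in any library.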

Other observations

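Control replicate 3 stood apart in several genes of the matrix system, picked after their values were seen. ADAMTS9 was at 216, 203 and 131 CPM in the control libraries and 166, 128 and 170.5 CPM in the PDZK1 libraries, ADAMTS5 at 59.6, 54.7 and 32.8 against 50.7, 37.0 and 50.8 CPM, and COL4A1, a basement membrane collagen chain, at 268, 258 and 189 against 280.0, 244 and 285 CPM. In each of these, control replicate 3 was the lowest control library, and PDZK1 replicate 2 was the lowest PDZK1 library. MMP2, MMP14, MMP15 and MMP24 had the same lowest library in each group. MMP1, MMP3, TIMP3 and TIMP4 had the reverse, with control replicate 3 and PDZK1 replicate 2 the highest of their groups, and TIMP1 and TIMP2 had neither order. ADAMTS9, ADAMTS5 and COL4A1 did not pass the threshold between the groups.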
